A study of Strongylocentrotus purpuratus with 8 samples.

Results

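The caspase and Bcl-2 family genes were taken by name, ignoring case, from an Agilent array of sea urchin gene targets. Every target was taken whose name held caspase, Sp-Casp, Bcl-2, Bcl2, Sp-Bcl, Sp-Bax, Sp-Bak, Sp-Bok or apoptosis reg, with separase left out. The rule gave 9 of the 6414 targets on the array, each with 2 probes. They were 4 caspase gene models named Sp-Casp (GLEAN3_05875, GLEAN3_11339, GLEAN3_18506 and GLEAN3_20623), Sp-Bok, SP-Bcl9, and 3 targets whose names the array files cut short, Apoptosis regulato, BCL2/adenoviru and NOD1 Caspase re. The files do not say which caspase each Sp-Casp model is. Of the 9 targets 7 were measured well enough to test, and Sp-Bok and Sp-Casp (GLEAN3_18506) were not.

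Caspases are cysteine proteases made as inactive precursors; initiator caspases cut and activate executioner caspases, which take the cell apart during apoptosis. Proteins of the Bcl-2 family sit upstream, where they promote or block the release of cytochrome c from mitochondria. In embryos many of these proteins are held ready and are switched by cleavage or binding, so the level of an RNA is only one of the layers at which they are controlled. Membership by spelling also brought in proteins of other kinds: Bcl9 is a cofactor of beta-catenin in Wnt signalling and no Bcl-2 homologue, and in mammals NOD1 is a cytosolic receptor of bacterial peptides that carries a caspase recruitment domain and is no caspase.

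The RNA came from whole embryos of the purple sea urchin, Strongylocentrotus purpuratus, at hatched blastula, 18 hours after fertilization at 15 °C. Zygotes of 4 cultures, each from another mating pair of wild animals, were injected with a splice-blocking morpholino, a synthetic antisense oligonucleotide, against the transcription factor SpRunt-1, and RNA was taken from 3600 of these morphants per culture. Embryos of the same 4 cultures that received no agent, about 14400, served as the control, with their RNA combined into 1 pool. The morphant RNA of a culture met that pool on 2 arrays of opposite dye orientation, so that 8 arrays stand for n = 4 cultures. Because the controls were untreated and pooled, an effect of injection or of a mating pair cannot be told apart from one of the morpholino. In whole embryos, fewer cells that express a gene and less of its RNA per cell cannot be told apart either.

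The arrays were dim, with median spot signals of 67.3 to 95.5 scanner units for morphant RNA and 59.9 to 70.8 for the pool, over local backgrounds of 44 to 51, and the small number of arrays limits the precision. Of 9 targets named for blastula stage proteins, 8 were well above background in the pool on all 8 arrays. Of these stage markers 1 was higher in morphants, a SPAN protein target (4.03-fold; limma adjusted p = 0.0416), and 1 was lower, VERY EARLY BLASTULA (0.484 times the pool; limma adjusted p = 0.0346). Over all targets 5.00% passed at an adjusted p under 0.05 (limma). The other SPAN protein targets stood at 1.53-, 2.42- and 2.44-fold (limma adjusted p = 0.0672, 0.0588 and 0.0563) and at 0.997 times the pool (limma adjusted p = 0.979). The part of stage in the members' values was not tested. The morphants of culture 1 stood apart. Across 5481 targets the ratios of 2 arrays of 1 culture correlated at 0.889 to 0.961, those of cultures 2, 3 and 4 with each other at 0.537 to 0.669, and those of culture 1 with the others at 0.317 to 0.414. These correlations are across genes, which are not independent replicates, and arrays share the pool. Of the probes for Runt itself, the brighter had a log2 ratio of −0.18 ± 0.27 (SD, n = 4; limma adjusted p = 0.345) and the other −0.20. Where they lie relative to the blocked splice site is not given in the sources used here, so they do not check the morpholino.

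No caspase or Bcl-2 family target passed the test against the pool. The value given for a target is the loess-normalized log2 ratio of morphant over pool, with positive values higher in morphants, averaged over the 2 arrays of a culture, from the brightest probe above background. With limma and Benjamini-Hochberg adjustment over all 5481 targets tested, 0 of the 7 had an adjusted p under 0.05, where 5.00% of all targets did (2.96% higher and 2.04% lower). At an unadjusted p under 0.05 there were 2 of 7, Sp-Casp (GLEAN3_11339) and NOD1 Caspase re, against 35.3% of all targets. A p that misses the threshold does not show that the levels were equal. With this normalization the 95% intervals of the 7 targets lay between −0.92 and 0.71. The sizes depend on it: with Agilent's own log ratio the 7 ratios ran from −0.89, for Sp-Casp (GLEAN3_11339), to 0.79, for BCL2/adenoviru, and under median centring instead of loess from −0.16 to 0.86, for Apoptosis regulato, with none of the 7 past the threshold under either. The median of their ratios was 0.16 against −0.02 over all targets, and the median size of their ratios was 0.19 against 0.23.

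**Figure D1:**
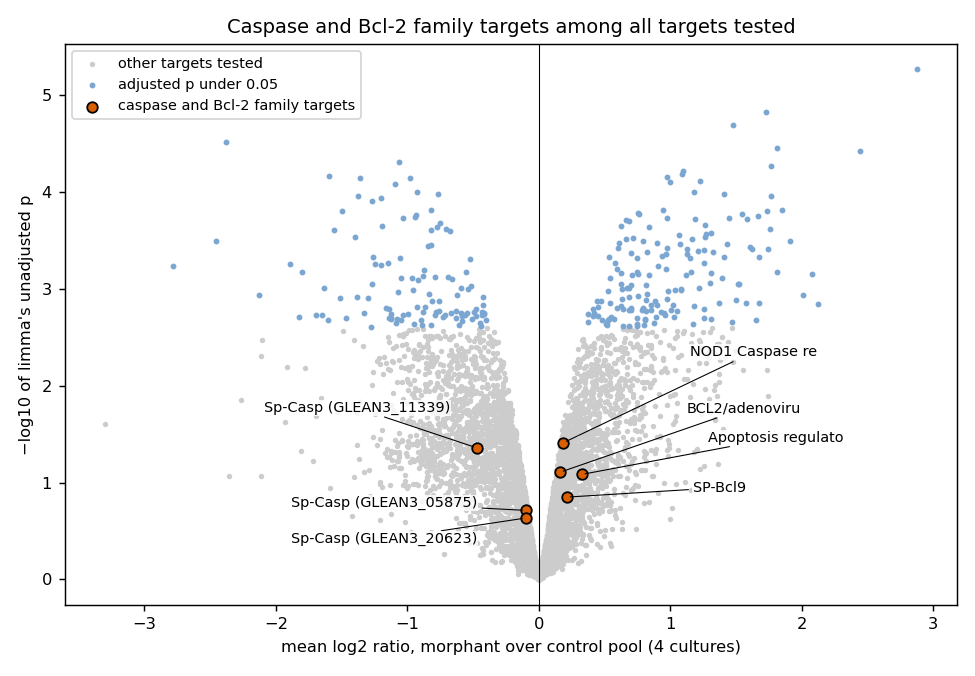
Each point is 1 of the 5481 targets tested, with its mean log2 ratio of morphant over control pool across 4 cultures on the x axis and −log10 of limma's unadjusted p on the y axis. The 274 targets with an adjusted p under 0.05 are blue, and the 7 caspase and Bcl-2 family targets, in orange, lie below them between −0.47 and 0.33.

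Among the caspases themselves, Sp-Casp (GLEAN3_11339) had the lowest ratio. Its brighter probe, CUST_3654, gave 0.12 in culture 1, −0.65 in culture 2, −0.77 in culture 3 and −0.59 in culture 4. Cultures 2, 3 and 4 lay together well below 0 and culture 1 lay above it. The mean was −0.47 ± 0.40 (SD, n = 4), a level 0.721 times that of the pool, with a 95% interval of −0.92 to −0.02 and a limma adjusted p of 0.134 (unadjusted p = 0.0438). Its other probe, CUST_3653, did not show the pattern. That probe gave −0.17, 0.43, −0.04 and −0.11 in cultures 1 to 4, with a mean of 0.03 ± 0.27 (SD, n = 4), and there culture 2 was the high one. Their median morphant signals were nearly equal, 129 and 131, so taking the brighter one decides the sign of this caspase's ratio. On CUST_3654 the mean was −0.89 with Agilent's log ratio (limma adjusted p = 0.0839) and −0.16 with median centring.

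The unnormalized morphant signals of these probes were highest in the culture with the highest ratio. On CUST_3654 the morphant signal was 182.3 and 204.9 on the arrays of culture 1 and 95.52 to 146 on the other 6, while the pool gave 207.3 and 128 beside culture 1 and 96.06 to 140.2 on the other 6. In culture 2 the morphant signal was above the pool's, 146 against 140.2 and 131.6 against 96.67, where the normalized ratios were −0.80 and −0.50. In cultures 3 and 4 it was below the pool's with the morphant in Cy5 and above it in Cy3. The raw signals alone therefore do not show a lower level in these cultures. On CUST_3653 the morphant signal was 241.6 and 241.5 in culture 2 and 81.97 to 151.2 elsewhere, and the pool stayed at 76.1 to 104. The highest morphant signal therefore belonged to culture 1 on one probe and to culture 2 on the other, in both dye orientations.

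The mean ratios of the other measured caspase models lay near 0 with the processing used here, and further from it with Agilent's log ratio. Sp-Casp (GLEAN3_05875) had 0.02, −0.18, −0.10 and −0.13 in cultures 1 to 4, a mean of −0.10 ± 0.08 (SD, n = 4; 95% interval −0.27 to 0.07; limma adjusted p = 0.321). Its mean was −0.19 with the morphant in Cy5 and −0.0037 with the morphant in Cy3, so it lay away from 0 in one dye orientation and next to it in the other. With Agilent's log ratio it was −0.43 (limma adjusted p = 0.193), and with median centring instead of loess it was −0.09. The tested probe of this model was well above background on 7 of 8 arrays for morphant RNA and 6 of 8 for the pool. Its morphant signals were 62.5 to 82.8, over local backgrounds of 43.5 to 51. The remaining probe of this model was not well above background on any array. Sp-Casp (GLEAN3_20623) had −0.04, −0.24, 0.02 and −0.14, a mean of −0.10 ± 0.11 (SD, n = 4; 95% interval −0.29 to 0.09; limma adjusted p = 0.366). Without loess, with each array only centred on its median, this ratio was 0.13, on the other side of 0, and with Agilent's log ratio it was −0.24 (limma adjusted p = 0.457). Its second probe was well above background on 3 of 8 arrays for morphant RNA and on none for the pool, with a bound of at least 1.00-fold, which gives no direction.

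Sp-Casp (GLEAN3_18506) was not well above background on any of the 8 arrays, in either RNA and on either probe. The morphant signals of its probes ran from 42.9 to 61.2 and the pool signals from 43.9 to 55.2, over local backgrounds of 42.5 to 54. No fold is given for it.

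NOD1 Caspase re had the smallest p of the 7 targets. It gave 0.12, 0.18, 0.30 and 0.14 in cultures 1 to 4 on probe CUST_3129, above 0 on 8 of 8 arrays. The mean was 0.19 ± 0.08 (SD, n = 4), 1.14-fold, with a 95% interval of 0.01 to 0.36 and a limma adjusted p of 0.127 (unadjusted p = 0.0388). One sign in all 4 cultures was found for this target and for BCL2/adenoviru, 2 of 7, against 44.3% of all targets. The other NOD1 probe, CUST_3130, gave 0.01, −0.18, 0.19 and −0.06, a mean of −0.01 ± 0.15 (SD, n = 4), above 0 on 5 of 8 arrays. Culture 3 was the highest on both probes, but cultures 2 and 4 lay below 0 on the second. The mean of CUST_3129 was 0.52 with Agilent's log ratio and 0.45 with median centring (limma adjusted p = 0.109 and 0.117). The targets with the pattern nearest to that of CUST_3129, by Euclidean distance over the 4 culture ratios, were ARL-6-interacting (0.0536), Sp-Hus- (0.0654) and PAIRED BOX PROTEIN (0.0657). As 139 targets lay within 0.2 of it, the likeness singles out no gene.

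**Figure D2:**
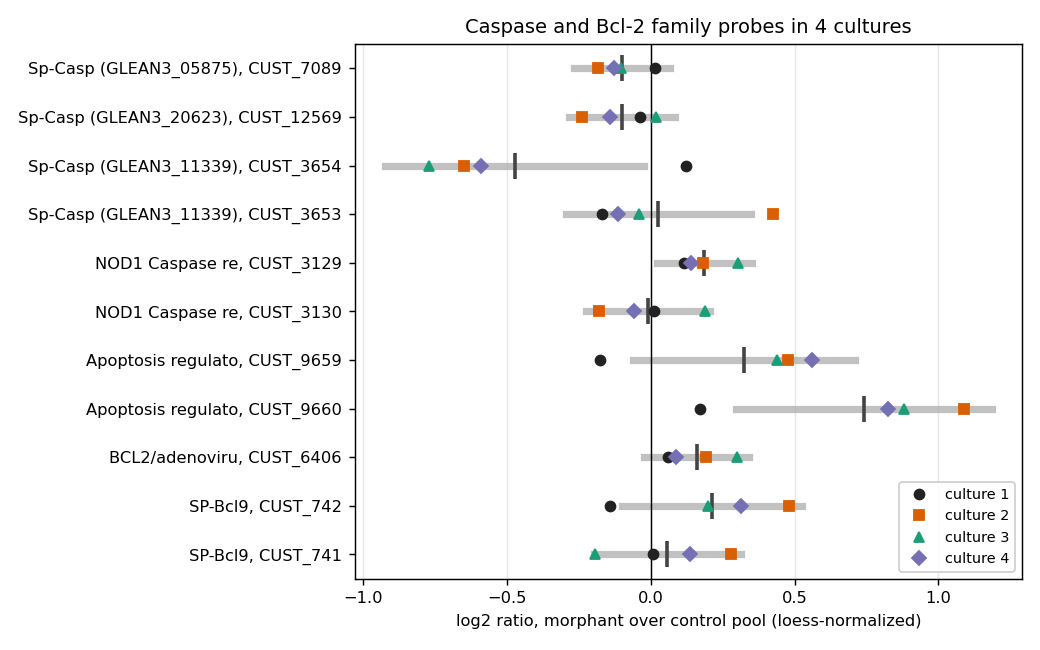
Log2 ratios of morphant over control pool (x axis) for the 11 probes of caspase and Bcl-2 family targets that passed the filter on dim probes, 1 row per probe. Symbols are the 4 cultures, the vertical tick is their mean and the grey bar limma's 95% interval; culture 1, in black, lies on the other side of 0 from the rest on CUST_7089, CUST_3654, CUST_9659 and CUST_742.

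The target Apoptosis regulato, a name shortened from that of an apoptosis regulator and otherwise unspecified in the files, had the highest ratio of the 7. Its brighter probe, CUST_9659, gave −0.18 in culture 1, 0.48 in culture 2, 0.44 in culture 3 and 0.56 in culture 4. Culture 1 lay below 0 and the others close together above it. The mean was 0.33 ± 0.34 (SD, n = 4), 1.25-fold, with a 95% interval of −0.06 to 0.71 and a limma adjusted p of 0.184. The second probe, CUST_9660, also had its lowest value in culture 1, with 0.17 in culture 1 and 1.09, 0.88 and 0.82 in cultures 2, 3 and 4. Its mean was 0.74 ± 0.40 (SD, n = 4), above 0 on 8 of 8 arrays, with a limma adjusted p of 0.0674 over all probes tested. Both probes of this target thus placed cultures 2, 3 and 4 above the pool, by amounts that differed between the probes.

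The raw signals of this target differed more between the RNAs than its ratios. On CUST_9659 the morphant signal was 153.8 and 167.5 on the arrays of culture 1 and 295.2 to 661.4 on the other 6, against 122 to 201 for the pool on all 8. On CUST_9660 it was 139 and 148.5 in culture 1 and 258.4 to 735.8 elsewhere, against 93.8 to 145 for the pool. Morphant signals were higher across the array in cultures 2, 3 and 4, where their medians were 75.8 to 95.5 against 67.3 and 72.8 in culture 1. Loess takes away what spots of like brightness share. With median centring in its place the ratio of CUST_9659 was 0.86 (limma adjusted p = 0.152), where the median over all targets was 0.10.

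**Figure D3:**
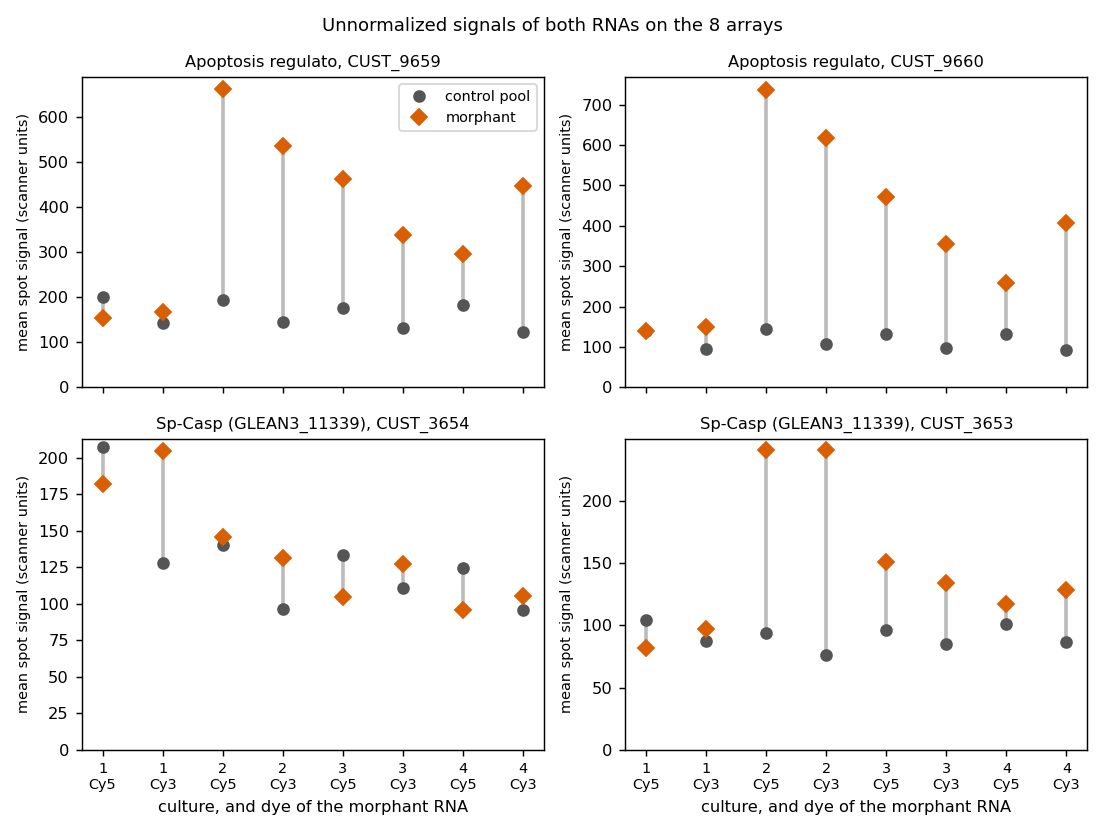
Mean spot signals in scanner units, before any normalization, of morphant RNA (orange) and control pool (grey) on the 8 arrays, ordered by culture and by the dye of the morphant RNA, for both probes of Apoptosis regulato and of Sp-Casp (GLEAN3_11339). Morphant signals of Apoptosis regulato are at 139 to 167.5 in culture 1 and at 258.4 or more in the others, while the high culture of the caspase is culture 1 on CUST_3654 and culture 2 on CUST_3653.

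BCL2/adenoviru gave 0.06, 0.19, 0.30 and 0.09 in cultures 1 to 4, on a probe that was well above background on 6 of 8 arrays for morphant RNA and 4 of 8 for the pool. Such a name is usual for proteins that bind Bcl-2 and the adenoviral E1B protein, but the files hold no more of it. Its mean was 0.16 ± 0.11 (SD, n = 4; 95% interval −0.03 to 0.35; limma adjusted p = 0.179). With Agilent's log ratio it was 0.79 (limma adjusted p = 0.0883), outside that interval. Its second probe was well above background on 2 of 8 arrays and was not tested.

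SP-Bcl9, the Wnt cofactor that the spelling brought in, gave −0.14 in culture 1 and 0.48, 0.20 and 0.31 in cultures 2, 3 and 4. As for Apoptosis regulato, culture 1 was the one culture below 0. The mean was 0.21 ± 0.26 (SD, n = 4; 95% interval −0.10 to 0.53; limma adjusted p = 0.261), and it was 0.37 with Agilent's log ratio and 0.58 with median centring. Its other probe gave 0.01, 0.28, −0.19 and 0.14, with a mean of 0.06 ± 0.20 (SD, n = 4) and with culture 3 lowest.

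Sp-Bok, which in mammals is a pore-forming member of the Bcl-2 family that promotes cell death, was at the limit of detection. Each of its probes was well above background on 2 of 8 arrays for morphant RNA and on none for the pool. Its morphant signals ran from 53.6 to 69.4 and its pool signals from 47.9 to 56.6. Against the lowest signal called above background, or the probe's own pool signal where that was higher, the bound on the morphant level was 1.02-fold on CUST_1955 and 1.06-fold on CUST_1956. As the morphant RNA itself was well above background on 2 arrays only, these bounds give no direction, and on CUST_1955 the mean log2 ratio was 0.12 with the morphant in Cy5 and −0.06 in Cy3. No target on the array matched Sp-Bax or Sp-Bak, and other spellings of these names were not searched.

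The single samples of the cultures differed from each other more than their dye-swapped arrays did for 3 of the 7 targets. In a limma F test over 4 cultures on all 8 arrays, with a term for dye orientation, the adjusted p was 0.000531 for Sp-Casp (GLEAN3_11339), 0.00179 for Apoptosis regulato and 0.00236 for SP-Bcl9. It was 0.210 for BCL2/adenoviru, 0.270 for Sp-Casp (GLEAN3_20623), 0.360 for Sp-Casp (GLEAN3_05875) and 0.442 for NOD1 Caspase re. Over all targets 61.5% passed this test, so a member's pass says little about that member. Each culture gave 1 RNA sample, so the test sets differences between single samples against the technical spread of the dye swap alone.

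Leaving out culture 1 brought 2 of the 7 targets past the threshold, where 16.2% of all targets then passed (6.48% higher and 9.71% lower). On the tested probes of both, culture 1 lay on the other side of 0 from the rest, so leaving it out had to narrow their spread. These passes therefore add no support of their own. Apoptosis regulato was then higher in morphants, at 0.49 ± 0.06 (SD, n = 3), 1.41-fold (limma adjusted p = 0.0389), and its second probe gave 0.93 ± 0.14, 1.91-fold (limma adjusted p over probes = 0.0313). Sp-Casp (GLEAN3_11339) was then lower, at −0.67 ± 0.09 (SD, n = 3), 0.628 times the pool (limma adjusted p = 0.0356), but its second probe gave 0.09 ± 0.29 (limma adjusted p over probes = 0.681). SP-Bcl9 stood at 0.33 ± 0.14 (SD, n = 3; limma adjusted p = 0.0820) without culture 1. Without culture 2, 3 or 4 in turn limma passed 0 of 7, and 0 of 7 at an unadjusted p under 0.05. Over all 5481 targets 1, 0 and 0 then passed (0.0182%, 0% and 0%), so the adjusted count says nothing about the members, and 22.1%, 22.2% and 24.6% had an unadjusted p under 0.05. The part of culture 1's lower morphant signals in these values was not tested.

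**Figure D4:**
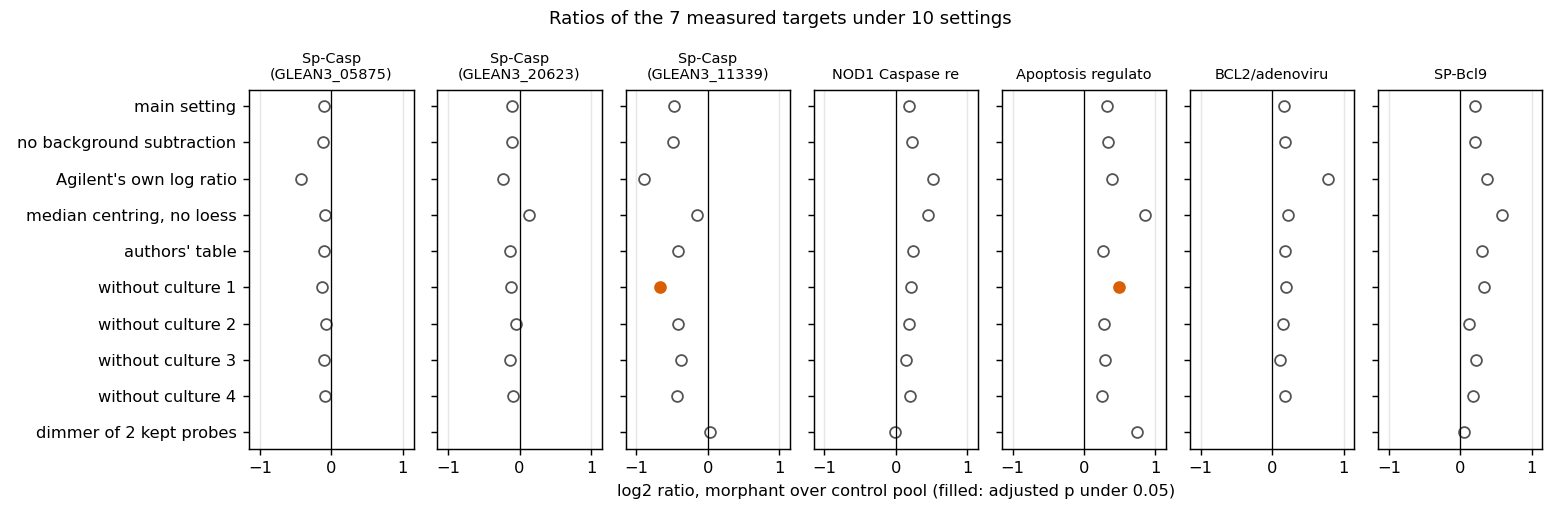
Log2 ratios of morphant over control pool (x axis) of the 7 measured targets, 1 panel each, under 10 settings (rows); a filled orange point has an adjusted p under 0.05. The only filled points are those of Sp-Casp (GLEAN3_11339) at −0.67 and Apoptosis regulato at 0.49, both without culture 1; the dimmer probe is shown for the 4 targets that have 2 kept probes.

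The probes of a target could be compared for 4 members. Those of Apoptosis regulato and of SP-Bcl9 had means of 1 sign, and those of Sp-Casp (GLEAN3_11339) and NOD1 Caspase re had means of opposite sign. Over the array 21.3% of the 4082 targets with 2 kept probes had opposite signs.

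Other genes of the cell death pathway were matched by name. The search gave 65 targets, of which 27 bear the name of a cell death gene and the other 38 matched by chance, such as accession numbers that begin with P53, or have unclear names. Of the 27 named targets 23 were tested, 1 was higher and 0 were lower at an adjusted p under 0.05 (limma), against 5.00% of all targets, and 6 had an unadjusted p under 0.05, against 35.3%. Neither count sets the list apart. Their median ratio was −0.03, against −0.02 over all targets. The other list member that passed was an actin, ACTIN CYTOSKELE, matched only through its accession P53474 (0.54; limma adjusted p = 0.0458).

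The 1 named target that passed was Sp-Pdcd (GLEAN3_22779), whose name stands for programmed cell death and does not say which of the unrelated proteins so called it is. It gave 0.36, 0.64, 0.52 and 0.38 in cultures 1 to 4, a mean of 0.48 ± 0.13 (SD, n = 4), 1.39-fold (limma adjusted p = 0.0458). All 8 arrays were above 0 on both of its probes, and the other probe had 0.47 ± 0.13 (SD, n = 4). Without culture 2, 3 or 4 its ratios were 0.42 to 0.51 (limma adjusted p = 0.120, 0.155 and 0.131). Of all 5481 targets only 1, 0 and 0 then passed, and 0 with trended robust eBayes (0.113 for this target by limma). A lost call in these settings therefore says nothing about this target. The call was also lost with median centring (0.73; limma adjusted p = 0.0917), no filter on dim probes and the morphant in Cy5 only (limma adjusted p = 0.0504 and 0.0645). Settings that kept it include leaving out culture 1, the authors' table and the morphant in Cy3 only (limma adjusted p = 0.0434, 0.0390 and 0.0353). With Agilent's log ratio the ratio was 1.54. The other 4 targets named for programmed cell death did not pass.

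Among the regulators of the caspases, the inhibitor of apoptosis proteins, which bind caspases or their activators through BIR domains, gave unlike values. Sp-Ciap had 1.14, 0.66, 0.82 and 0.23 in cultures 1 to 4, above 0 on all 8 arrays, with a mean of 0.71 ± 0.38 (SD, n = 4), 1.64-fold (limma adjusted p = 0.0658). Its second probe was higher still, with 1.54, 1.01, 1.13 and 0.74, a mean of 1.1 ± 0.33 (SD, n = 4), 2.15-fold, and passed where every probe was tested (limma adjusted p over probes = 0.0363).

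Sp-BIRC (GLEAN3_17593) split the cultures in another way. It gave −1.76, −1.62 and −1.58 in cultures 1, 2 and 3 and 0.86 in culture 4, and its second probe gave −1.57, −1.21, −1.48 and 1.00. On both probes culture 4 alone lay above 0, in both dye orientations. The mean of −1.02 ± 1.26 (SD, n = 4; limma adjusted p = 0.215) therefore describes no culture, and without culture 4 it was −1.65 ± 0.09 (SD, n = 3; limma adjusted p = 0.0910). Sp-Birc (GLEAN3_01262) had −0.07 ± 0.05 (SD, n = 4; limma adjusted p = 0.452) and Sp-IAP1 had 0.07 ± 0.25 (SD, n = 4; limma adjusted p = 0.696).

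**Figure D5:**
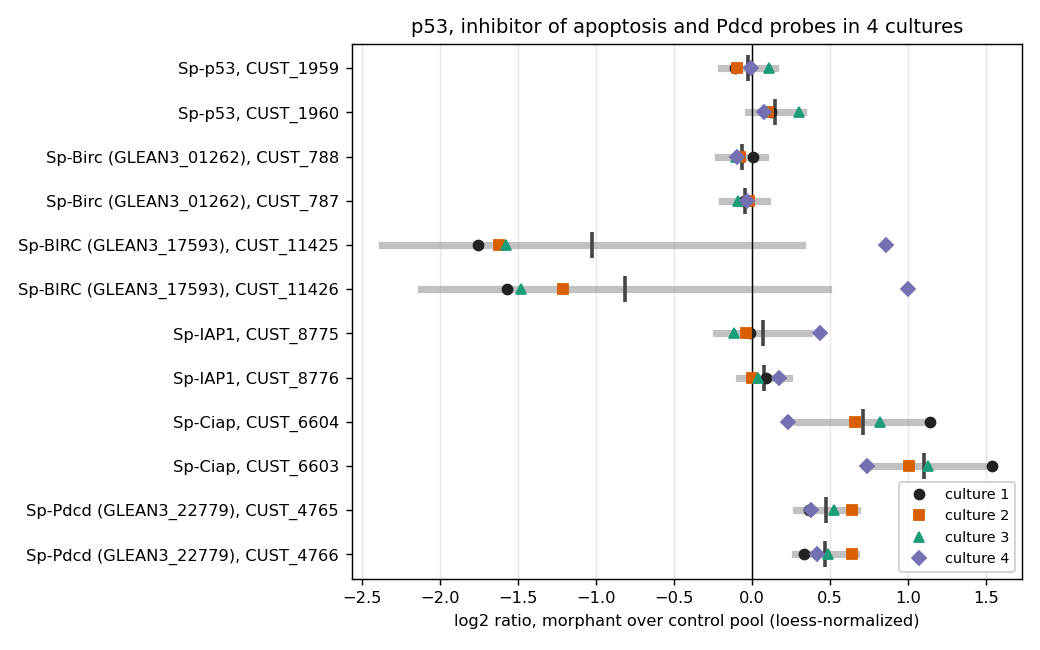
Log2 ratios of morphant over control pool (x axis) in 4 cultures for both probes of p53, 4 inhibitor of apoptosis targets and Sp-Pdcd (GLEAN3_22779), drawn as in the plot of caspase and Bcl-2 family probes. The probes of Sp-Pdcd (GLEAN3_22779) and Sp-Ciap lie above 0 in all cultures, and culture 4 of Sp-BIRC (GLEAN3_17593) lies at 0.86 and 1.00 while the others lie between −1.76 and −1.21.

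Upstream, Sp-p53, the transcription factor that induces many Bcl-2 family genes in vertebrates, had −0.11, −0.10, 0.11 and −0.0041 in cultures 1 to 4, a mean of −0.03 ± 0.10 (SD, n = 4; limma adjusted p = 0.815), and 0.15 ± 0.10 on its second probe. Its sign changed with the setting, from −0.10 with the morphant in Cy5 only to 0.47 with median centring. No target matched Apaf, the scaffold on which initiator caspases are activated. Of 6 mitochondrial targets none passed (limma), where 5.00% of all targets did, and 1 had an unadjusted p under 0.05, where 35.3% did. That one was Sp-Omi, named here, as is Sp-AIF, after its value was seen. The 6 had a median ratio of −0.03, with 2 above 0 and 4 below, and Sp-Omi and Sp-AIF were the lowest. One of those above 0 was a second AIF target, SpAIF c, at 0.17 ± 0.13 (SD, n = 4; limma adjusted p = 0.191). Omi is a protease that, once released from mitochondria, blocks inhibitor of apoptosis proteins. It had −0.38, −0.75, −0.67 and −0.23 in cultures 1 to 4 and a mean of −0.51 ± 0.25 (SD, n = 4; limma adjusted p = 0.0639), with −0.55 ± 0.35 on its second probe. Sp-AIF, an oxidoreductase of mitochondria that in mammals moves to the nucleus in dying cells, had −0.47, −1.91, −0.28 and −0.50, a mean of −0.79 ± 0.75 (SD, n = 4; limma adjusted p = 0.148), with culture 2 far the lowest and −0.77 ± 0.66 on its second probe.

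The kinase Akt, which in mammals holds back cell death by phosphorylating Bcl-2 family proteins and caspases, was measured by 2 targets. Sp-Akt gave −0.80, −2.26, −1.29 and −1.28 in cultures 1 to 4 (−1.41 ± 0.62; limma adjusted p = 0.0531) and its second probe gave −1.11 ± 0.52, below 0 on all 8 arrays. SpAkt c gave −1.0, −0.43, −0.73 and −0.23 (−0.60 ± 0.34; limma adjusted p = 0.0741). Neither target passed with the processing used here. With median centring the ratios of Sp-Akt and SpAkt c were −0.87 and −0.27 (limma adjusted p = 0.0725 and 0.438). With Agilent's log ratio they were −1.39 and −1.38 (limma adjusted p = 0.0306 and 0.0591).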

How the data were processed

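The authors' scanner files give, per the file headers, the mean and local background intensity of each spot and Agilent's log10 ratio; Agilent Feature Extraction (10.7.1.1) is the tool in the submitters' processing notes. Their deposited table of values is in log2 ratios, already morphant over control; it correlated with the ratios used here at 0.970 to 0.992 per array, and how it was made is not given in the sources used here.

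From these, in R 4.3.3 with limma 3.58.1 (files read with data.table, 1.17.8), signals were corrected with normexp (offset 50) and loess-normalized within arrays with 536 control spots at weight 0. Spots marked as outliers were left out, and ratios were averaged per culture over the dye swap. A probe had to be called well above background, in either channel, on 4 or more of the 8 arrays (9563 of 12696), and the brightest such probe stood for its target. For 5481 targets lmFit and eBayes tested whether the mean ratio differed from 0, with Benjamini-Hochberg adjustment (threshold 0.05). The procedure was run on simulated data with independent noise. Those data held neither a shared pool nor likeness between cultures, so the error rate under this design was not checked. For a probe not well above background in any pool sample, a bound was taken as the bright mean over the higher of the lowest detected and own signal.

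All 9 members are named, with passing, p53 and inhibitor of apoptosis targets of the pathway list, Runt, Akt and the 3 nearest patterns. The members and lists were chosen with earlier results of these data known. Array identifiers did not match the RefSeq gene table, and no sequences were used here. Replicates are separate cultures, but all share 1 control pool, so the p-values leave out the spread of the control.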

Additional observations from a re-analysis of the deposited data

Results flagged for a closer look

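On probe CUST_9659 of Apoptosis regulato, culture 1 lay far from the others, at −0.18 against 0.44 to 0.56 in cultures 2, 3 and 4; its second probe had its lowest value in the same culture. For Sp-BIRC (GLEAN3_17593), culture 4 gave 0.86 on probe CUST_11425 against −1.76 to −1.58 in the others, and its second probe did the same (1.00 against −1.57 to −1.21). In all, 3 of 25 probes examined had a culture this far out by Dixon's test. Among the 11 probes of caspase and Bcl-2 family targets it was 1, and the others were the probes of Sp-BIRC (GLEAN3_17593). Chance gives about 1 in 20, probes of a target are not independent, and the share over all probes of the array is not given. The count therefore does not set these probes apart.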

How the results depend on the processing

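The count of caspase and Bcl-2 family targets past the threshold was 0 under all settings run except without culture 1, with a range of 0 to 2 over the cultures left out. The members tested were 7, but 9 with no filter on dim probes, 5 with the filter on all 8 arrays and 4 on the dimmer kept probe. With trended robust eBayes, at an adjusted p under 0.01 and without culture 3 or 4, 0 of all 5481 targets passed. Without culture 2 it was 1 of 5481, so in these settings the members' count says nothing about them. Of the members' values, 123 of their comparisons with another setting kept sign and side of the threshold, and 2 passed it (both without culture 1). Another 3 changed sign: NOD1 Caspase re (−0.0089) and Sp-Casp (GLEAN3_11339) (0.026) on the dimmer kept probe, a setting chosen after seeing the data, and Sp-Casp (GLEAN3_20623) with median centring (0.13). Settings that changed only the filter, the test or the threshold left the members' ratios as they were, so no sign could change there. Where 0 or 1 of all targets passed, a member could hardly pass either. The 123 are therefore no measure of how stable the values are. Sp-p53 changed sign with Agilent's log ratio (0.027), median centring (0.47), the authors' table (0.077), the morphant in Cy3 only (0.044), the mean of probes (0.062) and the dimmer probe (0.15), and ran from −0.070 to 0.0019 with 1 culture left out. With 1 culture left out Sp-IAP1 ran from −0.054 (without culture 4) to 0.13, against 0.28 with Agilent's log ratio, and Runt was 0.077 with median centring. The cause was not tested for any of these.

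Counts past the threshold are given for all targets tested (274 of 5481), the cell death list (2 of 57) and its cell death names (1 of 23), in that order. They were 839, 9 and 4 with Agilent's log ratio, 56, 1 and 0 with median centring, 180, 0 and 0 with no filter on dim probes, 580, 5 and 2 with the authors' table, 1444, 14 and 5 with all arrays and the culture as a random block, 0, 0 and 0 with trended robust eBayes, 1224, 14 and 6 at an adjusted p under 0.1, and 0, 0 and 0 at 0.01. With the filter on all 8 arrays they were 413, 4 and 1. They were 210, 0 and 0 with the morphant in Cy5 only and 401, 4 and 1 with Cy3 only. The mean of probes gave 351, 2 and 2, and the dimmer probe 259, 2 and 2. Some settings changed the targets tested, to 6414, 65 and 27 with no filter and 4486, 46 and 17 with the filter on all 8 arrays. On the dimmer probe 4082, 41 and 17 were tested, and with Cy3 only 5474 of all targets. Leaving out 1 culture gave 0 to 887, 0 to 5 and 0 to 1. The F test between cultures passed 3 members with and without the dye term. No paired analysis was possible because all cultures were set against 1 control pool. Signals near background limit Sp-Bok, Sp-Casp (GLEAN3_18506), Sp-Casp (GLEAN3_05875) and BCL2/adenoviru.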

Other observations

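One target whose shortened name, BCL 2 INTERACTI, points to a Bcl-2 interacting protein was spelled in a way the search did not take in. It was not well above background on any of the 8 arrays in either RNA, and no ratio is given for it.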
